A study of Mus musculus with 8 samples.

Results

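The 57 Fox and Sox genes described here are the protein-coding genes of the GENCODE M21 annotation with a Fox or Sox symbol, 39 Fox and 18 Sox, out of 21938 protein-coding genes. Foxn1, Foxj1, Foxa1, Foxa2, Foxa3 and Sox8 were left out of the list by its definition. Accessible chromatin had been mapped by ATAC-seq, in which the transposase Tn5 inserts adapters into open DNA. The cells were medullary thymic epithelial cells (mTECs) sorted from the thymus of wild-type mice. There were 8 samples in 4 groups of 2 biological replicates, Tspan8neg MHCIIlow, Tspan8neg MHCIIhigh, Tspan8pos MHCIIlow and Tspan8pos MHCIIhigh. Tspan8 is a tissue-restricted antigen that few mTECs carry on their surface, and the level of MHC class II separates mTECs by maturation. The values used were the positions and widths of 57124 consensus regions on mm10, merged over the whole series, so that a region may stem from any of the 4 groups. Differences between the groups and the depth of each sample are not analysed here, because the names of the count columns match no sample.

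Fox proteins bind DNA through the forkhead domain, a winged helix that recognises an A/T-rich core. Sox proteins bind through an HMG box that inserts into the minor groove and bends the DNA. Both families hold regulators of embryonic patterning and of cell identity, many of them confined to a few tissues, next to members found in most cells. Several are known from the thymus and its surroundings: Foxe1, Foxi3 and Sox2 from the foregut, the pharyngeal arches and the placodes, Foxo1, Foxo3, Foxp1, Foxp3, Sox4 and Sox13 from lymphocytes. Foxn1, the factor that thymic epithelium depends on, is among the genes left out of the list.

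Each region that overlapped a gene body or the 10 kb on either side was given to the protein-coding gene with the nearest transcription start. In this way 157 regions were given to the Fox and Sox genes, and together they covered 53333 bases. At least 1 region was given to 42 of the 57 genes (73.7%), compared with 69.9% of all protein-coding genes. The label of the cells was compared with marker genes. A region covered a start of all 12 thymic epithelial markers, Aire, Epcam and Krt5 among them, compared with 56.4% of all protein-coding genes. No start of the 12 thymocyte markers was covered, although 9 of them had a region in the gene body or its flanks and 2 of these had 1 centred in a promoter window. Of 6 endothelial and fibroblast markers 4 had a region in the gene body or its flanks, and the start of Pdgfra alone was covered. Over all protein-coding genes 48.6% had a region centred in a promoter window. Only 22.3% had none in the body or its flanks, so a region there is common.

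The sequences below are the first to be shown because they are parts of the regions at or near the starts of 4 genes of the pharyngeal and foregut epithelium or its surroundings, and they show the density of CpG pairs there. They are given 5′ to 3′ on the strand of the gene, on mm10, with every CG pair in capitals. The stretch of Foxc1, chr13:31806333-31806632, is 300 bases with 34 CG pairs and 71.0% GC. The stretch of Foxe1, chr4:46343428-46343608, is 181 bases with 16 CG pairs and 72.9% GC. The stretch of Sox9, chr11:112781954-112782223, is 270 bases with 14 CG pairs and 61.5% GC. All 3 end at the base before the start. The stretch of Sox2, chr3:34649804-34649980, is a whole region of 177 bases with 23 CG pairs and 74.6% GC, and its centre lies 513 bases upstream of the start, so that the start itself is outside the region.
Foxc1: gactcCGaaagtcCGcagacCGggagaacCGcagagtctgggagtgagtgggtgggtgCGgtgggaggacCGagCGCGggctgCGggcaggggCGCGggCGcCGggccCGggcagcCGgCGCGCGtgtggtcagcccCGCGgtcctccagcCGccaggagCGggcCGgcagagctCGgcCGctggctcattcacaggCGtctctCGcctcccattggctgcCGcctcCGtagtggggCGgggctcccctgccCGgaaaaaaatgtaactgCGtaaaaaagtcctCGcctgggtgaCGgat
Foxe1: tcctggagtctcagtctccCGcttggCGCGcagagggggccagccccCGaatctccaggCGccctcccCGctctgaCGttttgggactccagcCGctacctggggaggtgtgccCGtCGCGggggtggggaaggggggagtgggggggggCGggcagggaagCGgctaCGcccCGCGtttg
Sox9: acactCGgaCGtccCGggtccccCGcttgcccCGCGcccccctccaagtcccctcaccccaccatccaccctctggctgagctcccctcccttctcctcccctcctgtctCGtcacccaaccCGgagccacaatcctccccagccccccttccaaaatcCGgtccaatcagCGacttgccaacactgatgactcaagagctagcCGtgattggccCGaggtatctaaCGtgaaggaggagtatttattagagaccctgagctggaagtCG
Sox2: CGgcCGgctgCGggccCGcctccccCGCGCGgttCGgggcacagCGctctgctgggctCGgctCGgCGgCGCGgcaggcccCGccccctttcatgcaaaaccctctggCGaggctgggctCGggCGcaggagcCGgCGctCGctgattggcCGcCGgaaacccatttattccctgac

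The question for each gene was whether its own transcription start lay in open chromatin. A region covered a start of 25 of the 57 genes (43.9%), compared with 56.4% of all protein-coding genes. The share was alike in both families, 17 of 39 Fox genes (43.6%) and 8 of 18 Sox genes (44.4%). In a further 14 genes (24.6%) a region lay within 1 kb of a start without covering it, a state found in 6.71% of all protein-coding genes. Regions elsewhere in the body or its flanks were the nearest ones in 9 genes (15.8%, all genes 14.6%), and 9 genes had no region there at all (15.8%, all genes 22.3%).

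Genes of these families mostly start in CpG-rich sequence. The 1000 bases around the 5′ end had a GC content of at least 50% and a CpG observed to expected ratio of at least 0.6 in 45 of the 57 genes (78.9%), compared with 44.4% of all genes. Of the 9742 genes with a CpG-rich 5′ end over the whole annotation, 8770 (90.0%) had a region across a start. Among the Fox and Sox genes with such an end a start was covered in 24 of 45 (53.3%, 95% Wilson interval 39.1 to 67.1, which covers counting over genes only). The 21 others divided into 11 with a region within 1 kb (24.4%, all genes 5.13%), 4 with a region farther away (8.89%, all genes 3.14%) and 6 with none (13.3%, all genes 1.70%). These states use the starts of the basic annotation. Among the 4, Foxp3 and Sox5 had a region within 1 kb of a start of the full transcript set. The covered start need not be the 5′ end itself, and at Foxp1 and Foxn3 regions covered starts far inside the gene. Counted at the 5′ end itself, 24 of 45 ends (53.3%) were covered, compared with 87.9% over all genes. These shares are descriptions, since genes are not replicates and the genes had been chosen with earlier results known. Of the 12 genes whose 5′ end was not CpG-rich, Foxj3 alone had a covered start (8.33%, all genes 29.5%). That start lies downstream of the annotated 5′ end, and the region over it also covers the start of Frg2f1 on the other strand.

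**Figure D1:**
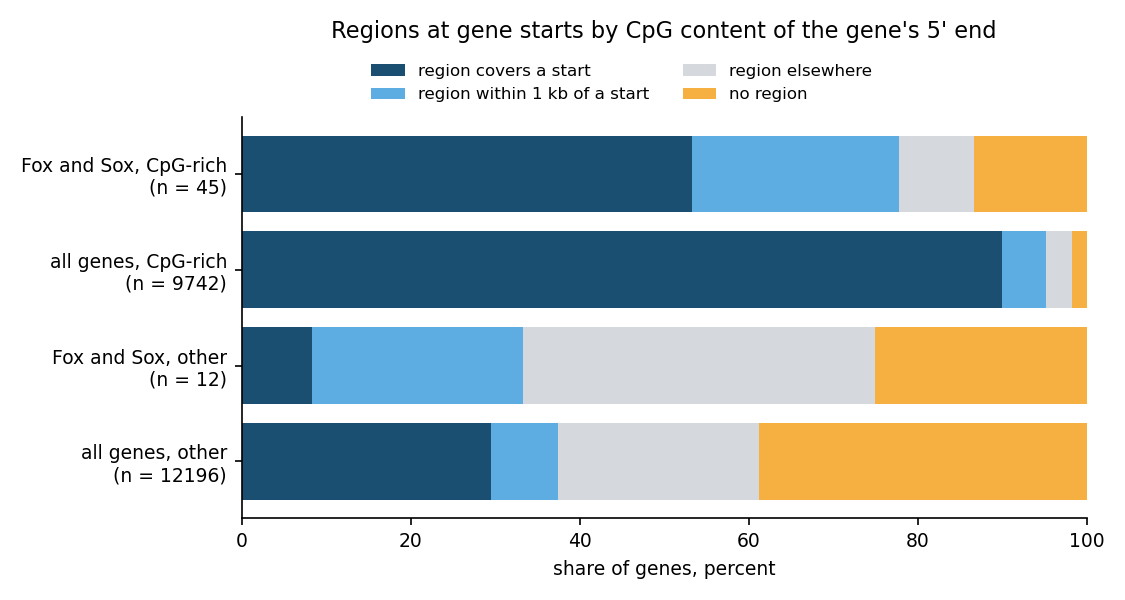
Share of genes, in percent, in each of 4 states, for the Fox and Sox genes and for all protein-coding genes, split by the CpG content around the 5′ end of the gene; n is the number of genes in a bar. Among genes with CpG-rich 5′ ends the part with a covered start is 53.3% for Fox and Sox genes and 90.0% for all genes, and the part with a region within 1 kb is 24.4% and 5.13%.

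The starts of the Foxk and Foxj genes, of Foxm1 and of Foxn2 were covered, a state found in 56.4% of all protein-coding genes. Foxk1 and Foxk2, which repress autophagy genes in fed cells, had regions of 444 and 520 bases whose centres lay 47 and 24 bases from a start. Foxn2 had a region of 855 bases centred 11 bases from a start. Foxj2 and Foxj3 had regions of 443 and 1300 bases. The start of Foxm1, which drives mitotic genes, was covered by a region of 710 bases (chr6:128362472-128363181) that also covers the start of Rhno1 on the other strand. By distance it was given to Rhno1, so Foxm1 counts as covered but has no region of its own.

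The Foxo genes encode targets of Akt that are held in the cytoplasm when insulin or growth factor signalling is on. Foxo1 had a region of 1394 bases across its start (chr3:52267854-52269247), the widest at any start of a Fox or Sox gene after that of Foxp4, and its centre lay 214 bases downstream of the start. It had 5 regions in all, the other 4 in introns. Foxo3 had 6 regions, of which 1 of 562 bases covered the start and 1 of 700 bases was centred 1223 bases upstream. Foxo4 had 1 region of 574 bases, centred 214 bases upstream of the start and reaching over it. Foxo6, by contrast, had a region of 583 bases centred 558 bases upstream that did not reach the start. Thus 3 of the 4 Foxo starts were covered, compared with 56.4% of all genes. All 4 genes have a CpG-rich 5′ end, and over all genes with such an end the share was 90.0%.

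The Foxp genes encode repressors that act as dimers, and the 4 genes differed in their regions. Foxp1, which keeps naive T cells quiescent, had 23 regions over 6749 bases. Foxp4 had 7 regions, and the one across its start was 1467 bases wide (chr17:47923710-47925176) with its centre 8 bases from the start. Foxp2, known from neurons and lung epithelium, had 3 regions, and none covered a start of the basic annotation, although a start of the full transcript set was covered. Foxp3, which defines regulatory T cells, had no region of its own. By the starts of the basic annotation, a region of 644 bases in its window was nearer to Ppp1r3f and was centred 5197 bases from the Foxp3 start. That region lay within 1 kb of a Foxp3 start of the full transcript set, without covering it. A region of 302 bases was nearer to Ccdc22.

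The Foxc, Foxd, Foxe and Foxi groups hold regulators of the head, the foregut and the neural crest. In them the starts of Foxc1, Foxd1, Foxd2, Foxe1 and Foxi3 were covered. Those of Foxc2, Foxd3, Foxd4, Foxe3, Foxi1 and Foxi2 were not, whereas 56.4% of all protein-coding genes had a covered start. Foxi3, which the pharyngeal ectoderm and endoderm require, had a single region of 296 bases centred 54 bases upstream of the start. Foxe1, a regulator of thyroid and palate development, had 1 region of 266 bases centred 49 bases upstream. That region also covers a start of the antisense gene Gm12446. The region at Foxd2 was wider, at 923 bases, and also covers a start of the noncoding neighbour Foxd2os. Foxc1 had 6 regions, 452 bases wide at the start. For the ionocyte regulator Foxi1 and for Foxd4 no region lay in the gene body or its flanks.

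In 9 Fox genes a region came close to a start but missed it. At Foxb2, Foxe3 and Foxi2 the regions were in the exon, with centres 811, 663 and 244 bases downstream. Foxd3, a neural crest factor, had such a region centred 424 bases downstream. Foxc2, Foxf1 and Foxo6 showed the other arrangement, with the region upstream of the start, and at Foxc2 it was 103 bases wide.

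The Sox genes are grouped by sequence into B1, B2 and C to H. None of the 3 starts of group B1, which keeps neural and pluripotent progenitors undifferentiated, was covered. Over all protein-coding genes 56.4% had a covered start, and 90.0% of those with a CpG-rich 5′ end, as all B1 and B2 genes have. Sox1 had a region of 312 bases centred 198 bases downstream of the start, and Sox3 had a region of 578 bases centred 1062 bases downstream. Sox2 had 4 regions, including the one of 177 bases shown above, another of 161 bases in its exon and one of 561 bases centred 7793 bases upstream. Both starts of group B2 were covered, by 193 bases at Sox14 and 780 bases at Sox21. With so few genes in each group, the difference between B1 and B2 was not tested. The region at Sox21 also covers a start of the lincRNA Gm4675.

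Group C genes act in neuronal and lymphoid progenitors. The region at Sox4 (chr13:28952817-28954022) was 1206 bases wide and centred 294 bases downstream of the start, and the region at Sox12 was 1084 bases wide and centred 275 bases downstream. At Sox11 a region of 514 bases stopped short of the start, with its centre 357 bases upstream. Sox4 had 3 more regions within 6038 bases upstream of its start. In group D, Sox13, known from gamma delta T cells, had a region of 947 bases across its start, whereas Sox5 and Sox6, which act together in cartilage, had none across a start of the basic annotation.

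In group E the regulators of cartilage and of the neural crest differed. Sox9 had a region of 486 bases centred 28 bases upstream of the start and a second of 633 bases centred 6207 bases downstream. The first also covers a start of the noncoding neighbour BC006965 on the other strand. For Sox10 no region lay in the gene body or its flanks, and the centre nearest to its start was 11834 bases away. Group F holds the vascular and endodermal regulators Sox7, Sox17 and Sox18. Sox7 had a region of 381 bases across its start. No region was found in the window of Sox17, and at Sox18 the 4 regions in the window were nearer to Tcea2. Sox30, a regulator of spermatid genes, had a region of 814 bases across its start, and the 2 regions in the window of Sox15 were nearer to Mpdu1 and Cd68.

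**Figure D2:**
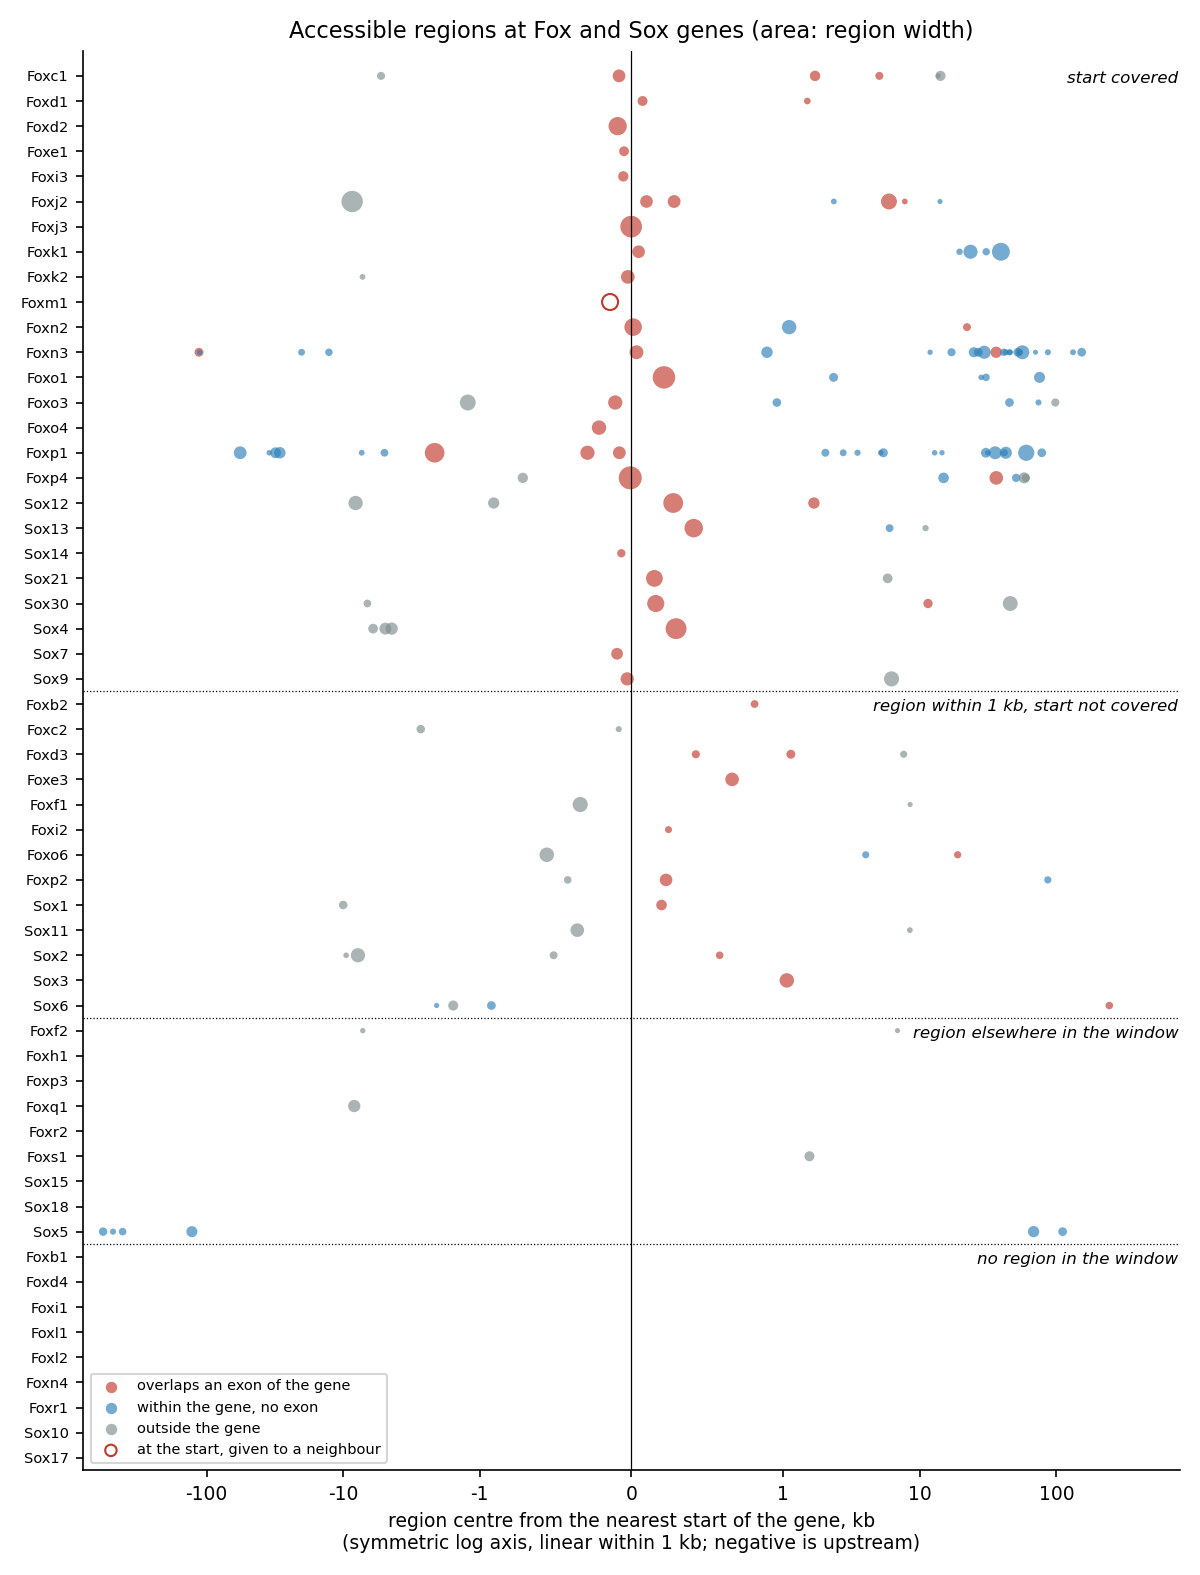
Position of the regions given to the Fox and Sox genes, as the distance of its centre from the nearest start of the gene in kb on a symmetric logarithmic axis; marker area grows with region width, colour gives the place, and the open marker is the region at the start of Foxm1 that was given to Rhno1. Of the 57 genes 25 had a covered start, 14 a region within 1 kb, 9 a region elsewhere in the window and 9 no region, 1 row of the 14 is not drawn, and rows without a marker in the third block have regions that are nearer to another gene.

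Genes without any region in the body or its flanks were Foxb1, Foxd4, Foxi1, Foxl1, Foxl2, Foxn4, Foxr1, Sox10 and Sox17. Foxb1 acts in the hypothalamus, Foxl1 in the gut mesenchyme, Foxl2 in the ovary and Foxn4 in the retina. The nearest region centre was between 11834 bases away, at Sox10, and 94905 bases away, at Foxi1. Of the 9 genes, 6 had a CpG-rich 5′ end, namely Foxb1, Foxl1, Foxl2, Foxn4, Foxr1 and Sox17. At Foxl1 the nearest centre was 11853 bases and at Foxr1 13207 bases from the start, so the nearest regions of these 2 genes and Sox10 lay just outside the distance used. The region nearest to Foxl1 is the one given to Foxc2 and centred 84 bases upstream of the Foxc2 start.

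Another definition of a promoter, for which the region centre had to fall between 1000 bases before and 100 bases after a start, gave 27 of 57 genes (47.4%), compared with 48.6% of all protein-coding genes. By this definition the Fox genes had 20 of 39 (51.3%) and the Sox genes 7 of 18 (38.9%). It left out 5 genes with a covered start and a region of their own, Foxo1, Sox4, Sox13, Sox21 and Sox30, because the centres of their regions lay between 151 and 410 bases downstream. It took in Foxc2, Foxf1, Foxo6, Foxp2, Sox2, Sox6 and Sox11, whose starts were not covered. The widest promoter region of each gene had a median of 486 bases (95% interval from order statistics 296 to 574, n = 27), compared with 555 bases over 10669 genes. After Foxp4 and Foxj3 the widest were at Foxd2, Foxn2, Foxm1, Foxf1 with 634 bases, Foxo6, Foxo4, Foxo3 and Foxp1 with 560 bases. The narrowest were at Foxc2 with 103 bases and Foxp2 with 160 bases.

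Regions just inside the genes made up a part of the set at these families. In 22 genes 24 of the 157 regions (15.3%) were centred more than 100 and up to 2000 bases downstream of a start, close to the 12.7% of 42093 regions given to all protein-coding genes. Of the 24 regions 20 lay in an exon, 3 in an intron and 1 outside the gene, and 6 reached back over the start. Among the 14 genes with a region within 1 kb of an uncovered start, it lay downstream in 7, upstream in 5 and on both sides in Foxp2 and Sox2. In all protein-coding genes in that state it lay downstream in 52.1% and upstream in 39.6%, so the side was divided much as elsewhere.

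Most Fox and Sox genes are short, with a median body of 5537 bases compared with 17425 over all protein-coding genes. The number of regions given per gene had a median of 2, compared with 1 over all genes, and a mean of 2.75 compared with 1.92. Genes with 5 or more regions made up 15.8% (9 of 57), compared with 10.1%. Among genes with a body under 10 kb the median was 1 region for the 36 Fox and Sox genes and 0 for 7774 genes of the annotation. Of the 157 regions, 46 (29.3%) belonged to Foxp1 and Foxn3, and 111 were left without them. After these followed Foxj2 and Foxp4 with 7 regions, Foxc1, Foxo3 and Sox5 with 6, and Foxk1 and Foxo1 with 5. Sox2, Sox4, Sox6, Sox12 and Sox30 had 4 each.

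The longest genes of the families differed in how many regions they held. Foxp1 (597384 bases) and Foxn3 (373505 bases), a factor linked to the DNA damage checkpoint, had 23 regions each. Sox5 (953553 bases) had 6, Sox6 (567925 bases) had 4 and Foxp2 (540629 bases) had 3. The 567 protein-coding genes of at least 300 kb had a median of 6 regions (quartiles 3 and 11), and 31 of them (5.47%) had 23 or more. The counts of Foxp1 and Foxn3 therefore stood in the upper part of the range of long genes, and those of Sox5, Sox6 and Foxp2 were at or below the median.

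The regions of Foxp1 and Foxn3 were mostly narrow and intronic. At Foxp1 the widest was 1061 bases (chr6:99522605-99523665), reaching over the annotated 5′ end of the gene, and 1 of 452 bases covered another start. At Foxn3 the region across the covered start was 535 bases wide (chr12:99392772-99393306), and a run of intronic regions followed it, of which the widest had 539 bases and was centred 56344 bases from the nearest start. At Sox5 all 6 regions were intronic. A region of 198 bases there was centred 409 bases downstream of the annotated 5′ end, from which a transcript outside the basic set begins.

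**Figure D3:**
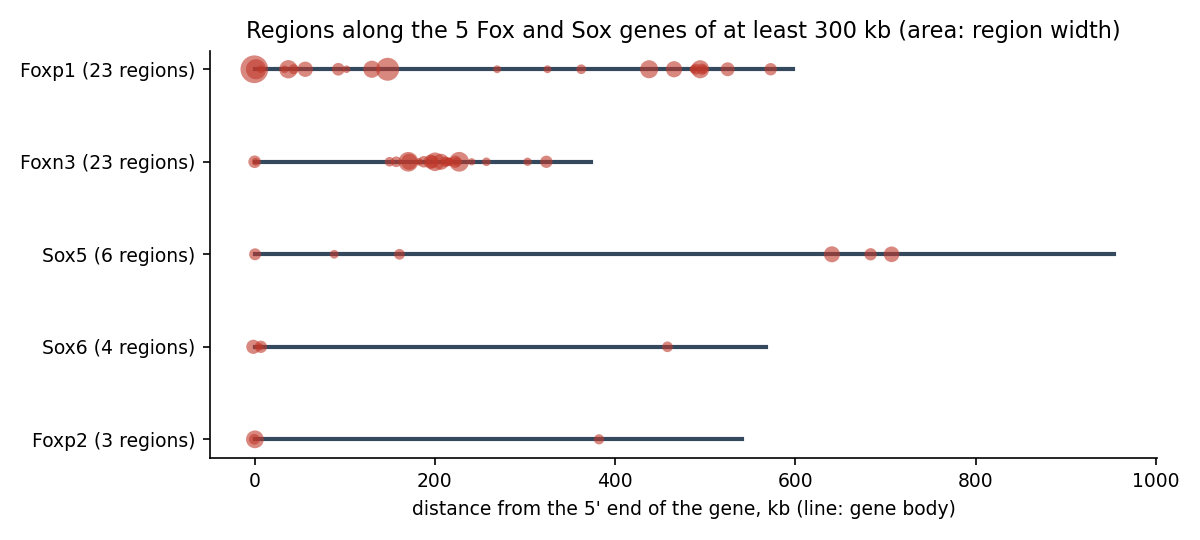
Regions given to the 5 Fox and Sox genes of at least 300 kb, by the distance of the region centre from the 5′ end of the gene in kb; the line is the gene body and marker area grows with region width. Foxp1 and Foxn3 carry 23 regions each, spread over the body of Foxp1 and gathered in the middle of Foxn3, and Sox5, Sox6 and Foxp2 carry 6, 4 and 3.

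In all, 6 Fox genes lie in 2 clusters with roles in the mesoderm and its derivatives. In the chromosome 13 cluster, Foxq1, Foxf2 and Foxc1 lie within 256343 bases, and 18 regions covered 4194 bases of the cluster and its flanks of 10 kb. Foxc1 held 6 of them and Foxf2 2, which were 80 and 74 bases wide and centred 7183 bases upstream and 6865 bases downstream of the Foxf2 start. Foxq1, a regulator of hair and of the gastric mucosa, had 1 region of 420 bases centred 8292 bases upstream. The 4 regions downstream of its start, the nearest centred 2047 bases downstream, were nearer to the start of A530084C06Rik, and 5 regions were given to no protein-coding gene. Only at Foxc1 was a start in this cluster covered.

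In the chromosome 8 cluster, Foxf1, Foxc2 and Foxl1 lie within 46259 bases, and 5 regions covered 1730 bases. Foxf1, the regulator of lung and gut mesenchyme, had a region of 634 bases (chr8:121083732-121084365) centred 338 bases upstream of the start and another of 74 bases. Foxc2, which lymphatic vessels require, had regions of 200 and 103 bases. Foxl1 had none, and the fifth region was given to Mthfsd. No start of this cluster was covered, so that over both clusters 1 of 6 genes had a covered start, compared with 56.4% of all protein-coding genes. All of the 6 except Foxq1 have a CpG-rich 5′ end, and over all genes with such an end the share was 90.0%.

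**Figure D4:**
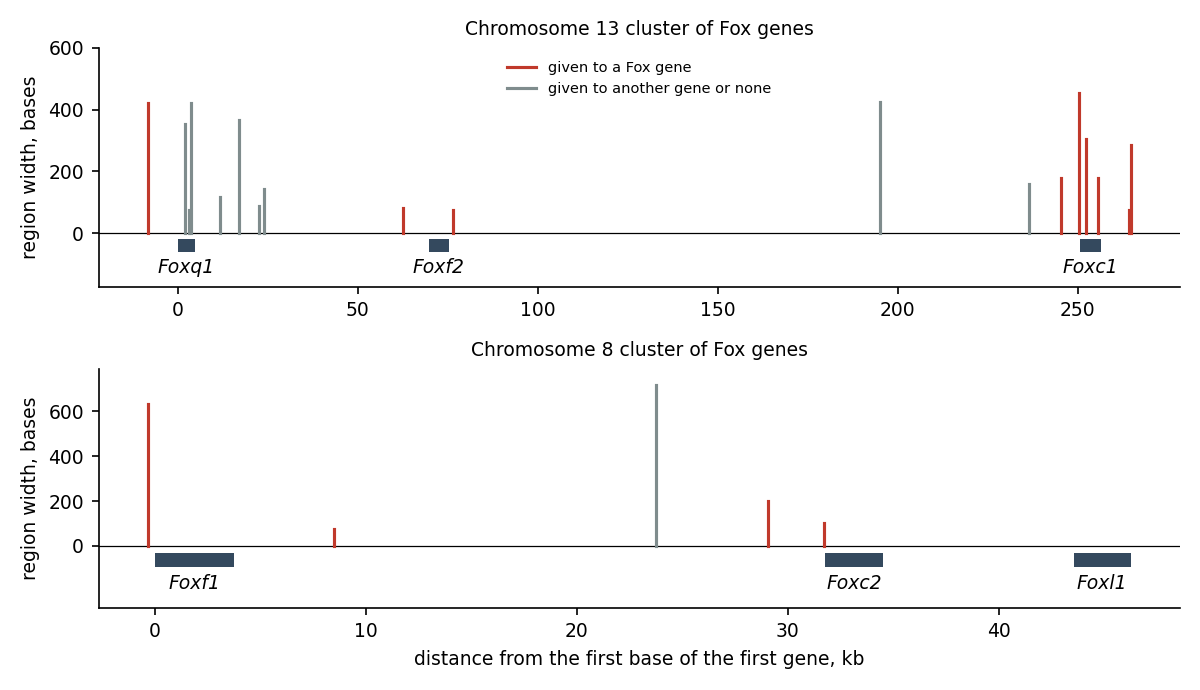
Regions in the 2 clusters of Fox genes, by the distance of the region centre from the first base of the first gene in kb; bar height is the region width in bases and boxes are the gene bodies. On chromosome 13 the regions gather at both ends, around Foxq1 and Foxc1, with 2 narrow ones near Foxf2, and on chromosome 8 none lies near Foxl1.

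Many Fox and Sox genes stand alone in long intervals between protein-coding neighbours. The interval from the neighbour on one side to the neighbour on the other had a median of 209238 bases, compared with 76768 over all protein-coding genes. The interval around Sox9 was 2168031 bases long and held 45 regions, or 20.8 per Mb. That around Sox4 held 34 regions in 933611 bases (36.4 per Mb), that around Sox2 27 in 1672784 bases (16.1 per Mb) and that around Sox11 26 in 1957957 bases (13.3 per Mb). Over the 14 Fox and Sox genes with an interval of at least 500 kb the density ran from 3.38 per Mb at Sox3 to 38.5 per Mb at Foxq1, with a median of 14.7. The median over 2177 protein-coding genes with such an interval was 9.71 per Mb. A region between genes cannot be assigned to either of them from its position.

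The place of the 157 regions was set beside that of all 42093 regions given to protein-coding genes. Of the 157, 50 (31.8%) overlapped an exon of the gene, 67 (42.7%) lay in an intron and 40 (25.5%) outside the gene, compared with 38.6%, 43.1% and 18.3% over all genes. The median width was 448 bases for exonic regions, 167 for intronic ones and 263 for those outside, compared with 494, 158 and 170 over all genes. Their median GC content was 71.2%, 50.7% and 58.4%, compared with 64.9%, 51.2% and 53.5%. The intronic regions were thus close to those of all genes in both measures. The regions at promoters made up 17.8% (28 of 157), compared with 18.7% (10681) of all 57124 regions. Those 57124 also hold regions given to no gene, so the share among the 42093 given to genes is higher. Over all 157 regions, at promoters or not, the median width was 222 bases, compared with 212 over all 57124 regions. Of the 157, 42.7% were narrower than 200 bases, compared with 47.4%.

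In base composition the set was compared with all 57124 regions. The median GC content was 58.7%, compared with 53.9% over all regions. The CpG observed to expected ratio had a median of 0.575, compared with 0.317. The medians of all regions within classes of width and promoter position, averaged with the weights of the Fox and Sox regions, were 55.3% and 0.384. Among regions more than 1 kb from every protein-coding start the median ratio was 0.318 (n = 100), compared with 0.233 over 40209 regions, and it was 0.495 in 22 Sox regions and 0.295 in 78 Fox regions. Their median GC content was 53.3%, compared with 51.3%. The difference was thus smaller away from the starts, and no test was made of it.

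The regions were searched for the cores that these proteins bind, TGTTTAC for forkhead proteins and AACAAT for Sox proteins, on both strands, where the reverse strand reads GTAAACA and ATTGTT. Matches to both can overlap, since the reverse forkhead core ends in the letters with which the Sox core begins. The forkhead core occurred in 11 of 157 regions (7.01%, 95% Wilson interval 3.96 to 12.1), compared with 3.69% of all regions and 3.91% at the same widths and promoter share. These regions were at Foxj2, Foxk1, Foxo1, Foxo3, Foxo4, Foxp1, Foxp2, Foxp4, Sox12 and Sox6. The Sox core occurred in 20 regions of 12 genes (12.7%, interval 8.40 to 18.9), compared with 7.60% of all regions and 8.21% at the same widths and promoter share. Both cores were found in 4 regions, at Foxo3, Foxp1, Foxp4 and Sox12. In the central 200 bases of regions at least that wide, the shares were 3 of 90 (3.33%, all regions 2.64%) and 7 of 90 (7.78%, all regions 5.64%), so that the distance from all regions was smaller there.

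The next sequences show 3 of these matches in genes of different behaviour, with the core in capitals, 5′ to 3′ on the strand of the gene. Foxp2 carries TGTTTAC from base 117 of the region at chr6:14900850-14901009, which is centred 420 bases upstream of the start. Sox6 carries the core on the other strand, read as GTAAACA from base 63, in the region at chr7:116040169-116040447, centred 1564 bases upstream of a start. Sox5 carries the Sox core on the other strand, read as ATTGTT from base 136, in the region at chr6:144781470-144781667 near the 5′ end of the gene. A match is a string of letters in an open region, and binding of a protein was not measured.
Foxp2: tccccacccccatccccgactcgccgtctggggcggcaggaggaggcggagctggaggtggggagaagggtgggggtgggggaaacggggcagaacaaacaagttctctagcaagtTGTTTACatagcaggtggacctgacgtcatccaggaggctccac
Sox6: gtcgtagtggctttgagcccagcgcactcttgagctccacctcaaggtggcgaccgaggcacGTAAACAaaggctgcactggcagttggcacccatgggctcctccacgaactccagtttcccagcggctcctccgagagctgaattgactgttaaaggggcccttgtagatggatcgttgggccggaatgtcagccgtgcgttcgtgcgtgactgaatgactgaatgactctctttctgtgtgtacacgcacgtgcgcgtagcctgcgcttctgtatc
Sox5: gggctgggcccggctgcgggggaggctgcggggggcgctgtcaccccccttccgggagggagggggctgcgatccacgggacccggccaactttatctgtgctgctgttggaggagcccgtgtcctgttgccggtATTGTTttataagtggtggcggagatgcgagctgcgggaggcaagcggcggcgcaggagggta

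The genes left out of the list and the other HMG box factors were set beside both families as counts, for which the shares over all protein-coding genes are 48.6% with a promoter region and 56.4% with a covered start. All 6 genes left out, among them Foxn1, had a region centred in a promoter window, and the starts of Foxa2, Foxj1 and Foxn1 were covered whereas those of Foxa1, Foxa3 and Sox8 were not. The 4 HMG box factors of Wnt signalling, Tcf7, Lef1, Tcf7l1 and Tcf7l2, likewise all had a region in a promoter window. The starts of Tcf7l1 and Tcf7l2 were covered, and those of the lymphoid factors Tcf7 and Lef1 were not.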

How the data were processed

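ATAC-seq libraries of mTECs sorted by Tspan8 and MHC class II were analysed from 1 deposited table. The authors aligned reads to mm10 with Bowtie2, filtered them with SAMtools and Picard, called broad peaks with MACS2, joined overlapping peaks with bedtools and counted reads over them with featureCounts 2.0.3. No source used here says if single or pooled samples entered peak calling. The deposited values used are region starts, ends and widths in bases, which other merging would alter. The names of 8 count columns match no sample label, so these were used in no step, and no group was compared or tested.

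Regions were compared with the basic set of GENCODE M21 and with the mm10 sequence. The 5′ end of a gene is that of its longest annotated extent, and starts are those of basic transcripts. CpG content was taken over 1000 bases. Weighting to widths used 10 width classes within promoter and other regions. Region assignment was tested on simulated regions. Genes named with values were the 10 with most regions, the 10 with the widest promoter region, those without a region and a list with roles in thymus, pharynx, epithelium or T cells. The values of 1 gene are counted in the totals and not reported here. Other genes were named after their values were seen. The genes and lists were chosen with earlier results of these data known. Shares have 95% Wilson intervals, which cover counting error only. Alternatives covered the promoter definition, flank, annotation, region width, motif length and gene list. The work was done in Python 3.11.15 with pysam 0.24.0, pandas 2.3.3, numpy 2.4.6, scipy 1.17.1 and matplotlib 3.10.9.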

Additional observations from a re-analysis of the deposited data

How the results depend on the processing

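Over 8 results 36 alternatives were tried, 10 of them chosen after seeing the data, and 27 left the value within its limit (1.5 times for counts, the 95% interval for shares and medians). Restriction to regions of at least 200 bases left 90 regions in place of 157 and put 26.7% at promoters in place of 17.8%, which counting any overlap within 1000 bases of a start made 30.6%. Genes without a region of their own numbered 15, and 9 when a region given to another gene was counted. A longer core lowered the shares by its construction, to 2.55% from 7.01% for 8 letters (forkhead) and to 5.10% from 12.7% for 7 letters (Sox), and the central 200 bases gave 3.33% and 7.78%. For the share of CpG-rich Fox and Sox starts with a region, all alternatives were chosen after seeing the data. This share was 77.8% in place of 53.3% when a region within 1000 bases counted, compared with 95.2% of all CpG-rich starts. Under the other 5 alternatives for it, it was from 51.1% to 55.6%, and the value over all genes from 87.9% to 92.2%. The promoter window was not among these alternatives. It held a region centre in 55.6% of CpG-rich Fox and Sox genes and in 73.4% of all CpG-rich genes. No paired analysis was possible because no count column could be tied to a sample. For the same reason no replicate was left out, and limits set by depth are not analysed here.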
